A study of Peromyscus maniculatus and Peromyscus polionotus and Peromyscus maniculatus x Peromyscus polionotus with 18 samples.

Results

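The species by trial interaction asks, for each gene, whether a bout of burrowing changed its brain RNA differently in 2 sister species of deer mice. It is the trial response of *Peromyscus polionotus*, burrowing minus control, minus the same response of *P. maniculatus*. A positive value means that the gene stood higher after burrowing in *P. polionotus* relative to *P. maniculatus*, and a negative value the opposite. The 12 libraries of the parental species entered it, of 18 in the series; the other 6 are from their F1 hybrids. The groups were *P. polionotus* after a burrowing trial, *P. polionotus* after a control trial, *P. maniculatus* after a burrowing trial and *P. maniculatus* after a control trial, with 3 libraries each. All animals were adult males of about 50 to 80 days that had been through 2 earlier trials in sand-filled enclosures and were then put into a trial cohort at random. Whole brains were taken right after the test trial, and poly(A) RNA was sequenced from stranded libraries. The sources used here do not give what the control trial consisted of, how long a trial lasted or the strains of origin. The protocols speak of individual animals, so each library was treated as 1 animal, and p-values measure the spread between these animals only.

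*P. polionotus* digs long burrows with an entrance tunnel, a nest chamber and an escape tunnel, while *P. maniculatus* digs short simple ones, and the difference is inherited. A trial in an enclosure can combine digging with arousal and exercise, here in animals that had already been through earlier trials. Genes known to follow such states in rodent brain are immediate early genes, which neurons switch on with activity, and genes induced by glucocorticoids, the stress steroids of the adrenal.

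Values are TPM, in which each library's transcript levels add up to the same total, as deposited, and differences were taken as log2(TPM + 1), a scale on which changes at low TPM come out too small. Of 20732 listed features, 14366 had a mean of at least 1 TPM and were tested. Neuronal (Snap25, 452 to 569 TPM), astrocyte (Aqp4, 148 to 258 TPM), oligodendrocyte (Mbp, 295 to 395 TPM) and microglial markers (P2ry12, 20.8 to 37.7 TPM) were present in all 12 libraries, as whole brain calls for. The choroid plexus marker Ttr stood at 1112 to 2027 TPM. Kcnj13, also chosen as a marker of choroid plexus, was at 0 to 1.95 TPM (median 0.061), and Folr1 was not found among the listed features. With the species means removed, the first principal component held 23.6% of the variance and set apart *P. polionotus* burrowing replicate 3 (14.9), *P. polionotus* control replicate 2 (14.6) and *P. maniculatus* control replicate 3 (19.6) from the other libraries (-13.3 to 1.76). The second component held 20.8% and set *P. polionotus* control replicate 2 (-26.0) opposite *P. polionotus* burrowing replicate 3 (14.9) and *P. maniculatus* control replicate 3 (10.4). The 3 libraries thus differed from each other there. *P. polionotus* control replicates 2 and 3 were also low in Hox genes of the hindbrain. Of 67 genes named here, 28 had an interaction that moved by over 1.5 times or changed sign without the 3 libraries apart, and 26 did so without the 2 low controls; their values without these libraries stand beside the gene or after the gene lists. In whole tissue, fewer cells of a type and less RNA per cell cannot be told apart.

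No gene passed the interaction test. limma called 0 of 14366 genes at a Benjamini-Hochberg adjusted p under 0.05 (0%). At an unadjusted p under 0.05 there were 415 (2.89%), of which 108 (0.752%) were positive and 307 (2.14%) negative. That share is below the 0.05 that evenly spread p-values would give, but the count depended on the libraries. It was 923 (751 negative) without *P. polionotus* control replicate 1, 878 (715 negative) without the 3 libraries apart and 1176 (1028 negative) with array weights, all above that share. It was 177 (88 negative) without the 2 controls low in Hox genes. Taken alone, the *P. polionotus* response had 0 genes called (0%) and 446 at an unadjusted p under 0.05 (3.1%), with 1.21% of all genes higher and 1.89% lower. The *P. maniculatus* response had 1 gene called (0.00696%), Ptges, and 291 at an unadjusted p under 0.05 (2.03%), with 1.42% higher and 0.606% lower.

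What the design could have shown is set by the spread between animals. The median standard error of an interaction was 0.13 on the log2 scale, against 0.09 for the response of a single species, and its median 95% interval reached 0.29 to either side. A gene of median spread would have had to differ by 1.14 to be called alone, by 1.37 at 1 to 5 TPM and by 1.05 at 50 TPM or more. The median gene differed by 0.09 in size, the 90th percentile of sizes was 0.28, and 63 genes by over 1, 24 of them positive and 39 negative. These are sizes of estimates and include error, with the median size of 0.09 below the median standard error of 0.13. An interaction near the median size was not detectable here, and a missed threshold does not show that the species responded alike.

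Across genes, the estimated responses of the species were close to unrelated. Pearson's r between them was -0.05 over 14366 genes, Spearman's rho was -0.05, and 45.2% of genes had the same sign in both. That share was 47.5% with quantile normalization and 36.0% without the 3 libraries apart. At a median standard error of 0.09 per species, an r near 0 does not show that the true responses were unrelated. The 2 responses share no library, though genes within a library share its depth and scaling. Of all genes, 46 (0.32%) had non-overlapping trials in both species in opposite directions, while 21 (0.146%) were higher and 7 (0.0487%) lower after burrowing in both without overlap. In a single species, trials left no overlap for 2.22% of genes higher and 4.23% lower after burrowing in *P. polionotus*, and for 5.85% higher and 1.38% lower in *P. maniculatus*.

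**Figure D1:**
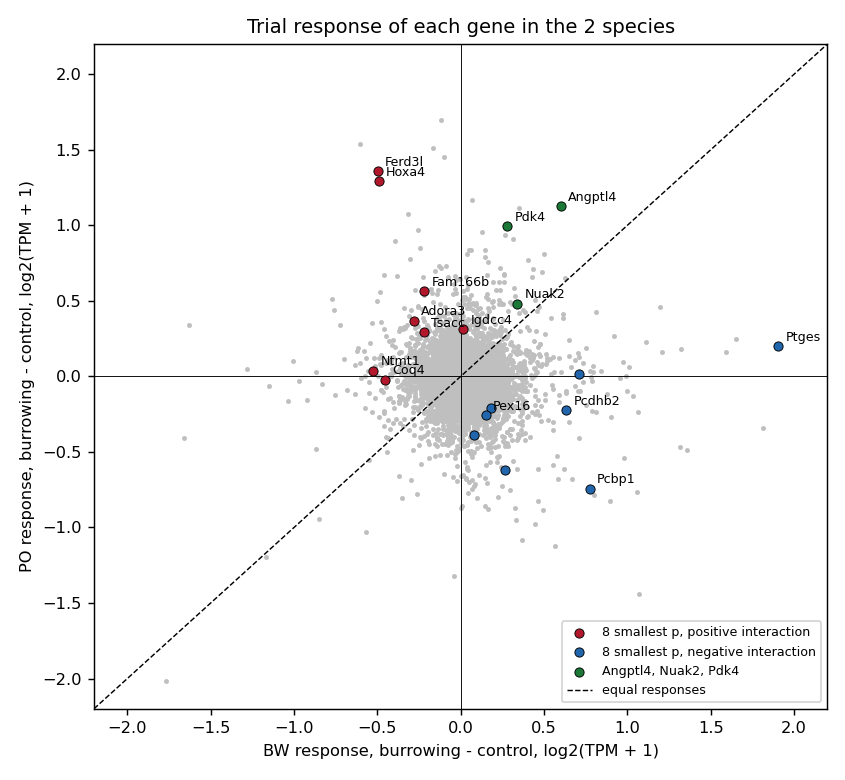
Burrowing minus control on log2(TPM + 1) for each gene, *P. maniculatus* (BW) on the x axis and *P. polionotus* (PO) on the y axis; red and blue points are the 8 genes per direction with the smallest interaction p, and 2 genes lie outside the axes. Ptges lies far along the x axis at 1.91 and near 0 on the y axis at 0.20, while Angptl4, Pdk4 and Nuak2 lie in the quadrant that is positive in both species.

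The smallest interaction p belonged to Ptges, the inducible synthase of prostaglandin E2, a lipid messenger of inflammation, fever and stress. In *P. polionotus* it was at 0.945, 0.592 and 0.752 TPM after burrowing and at 0.629, 0.331 and 0.648 TPM in controls. In *P. maniculatus* it was at 10.8, 10.3 and 10.2 TPM after burrowing and at 2.55, 2.61 and 1.23 TPM in controls. The *P. maniculatus* burrowing libraries stood above all 9 others, and the *P. polionotus* trials overlapped. The interaction was -1.70 (SE 0.24, 95% interval -2.23 to -1.18) and came from a response of 0.20 in *P. polionotus* and 1.91 in *P. maniculatus*, and it did not pass over all genes (adjusted p = 0.296). It kept its sign in all 26 other settings, at -1.85 to -1.06, with limma adjusted p from 0.00377 to 0.9999, and passed in 3 of them.

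Coq4, which is needed for coenzyme Q synthesis, and Ntmt1, an N-terminal methyltransferase, had the smallest p among positive interactions. Coq4 was at 41.0, 44.8 and 45.7 TPM in *P. polionotus* after burrowing, 43.6, 44.0 and 45.7 TPM in *P. polionotus* controls, 27.5, 28.4 and 30.1 TPM in *P. maniculatus* after burrowing and 41.8, 40.3 and 37.0 TPM in *P. maniculatus* controls. The *P. maniculatus* burrowing libraries were low and the other 3 groups lay together; the interaction was 0.44 (SE 0.09), with -0.02 in *P. polionotus* and -0.46 in *P. maniculatus*. Ntmt1 was at 45.6, 41.1 and 38.8 TPM in *P. polionotus* after burrowing and 36.2, 44.9 and 41.3 TPM in controls, against 62.0, 59.8 and 61.0 TPM in *P. maniculatus* after burrowing and 94.0, 86.5 and 83.9 TPM in controls. Its trials overlapped in *P. polionotus* and not in *P. maniculatus*, and the interaction was 0.56 (SE 0.12). Neither passed (limma adjusted p = 0.992 for each, which is also the adjusted p of each gene named from here on unless another is given).

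Ptges and Ntmt1 are neighbours in the reference assembly HU_Pman_BW_mat_3.1, and Coq4 lies on the same chromosome but not within 25 protein-coding genes of either. Within 25 protein-coding genes of Ptges on either side 37 genes were tested, and 5 of them had an unadjusted p under 0.05, against 2.89% of all genes, in a window chosen after its values were seen. By count alone Ptges did not stand out, since the windows of LOC102916021 (5 of 39) and Pex16 (5 of 37) held as many. Windows held fewer at Coq4 (3 of 35), Pcdhb2 (1 of 17), LOC102926227 (0 of 25), LOC102921798 (0 of 23) and Pcbp1 (0 of 25). By p among all genes, Ntmt1 ranked 5, Usp20 17 and Fibcd1 18. Such neighbours ranked 191 or later at LOC102916021 and 83 or later at Pex16. Besides Ntmt1 the 5 near Ptges included Fibcd1, a receptor for chitin and other acetylated compounds, at -0.40 (SE 0.10), and Usp20, a deubiquitinase, at -0.43 (SE 0.11). Both had *P. maniculatus* trials without overlap, higher after burrowing by 0.29 and 0.30, and *P. polionotus* trials that overlapped. With Ptges, Fibcd1 and Usp20 higher and Ntmt1 lower in the *P. maniculatus* burrowing brains, neighbours went in both directions.

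**Figure D2:**
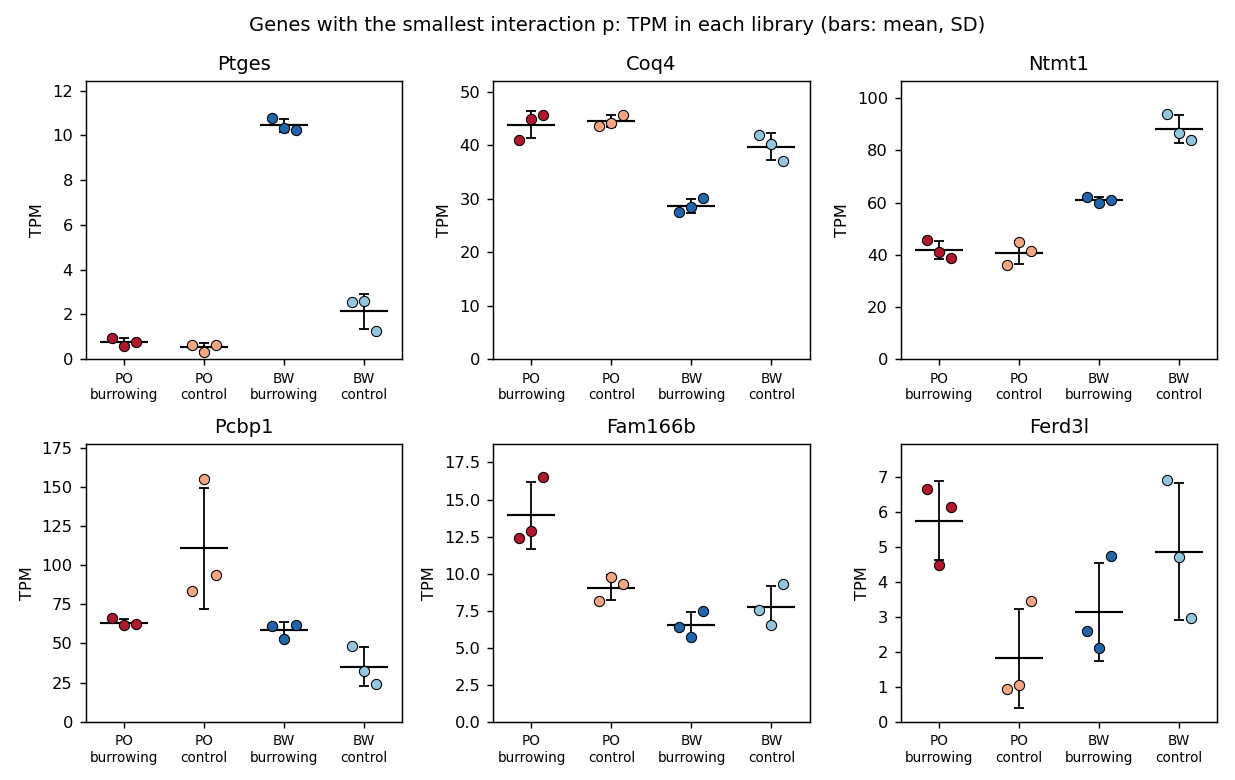
TPM of 6 genes with small interaction p in each of the 12 libraries (y axis, linear, from 0), by species (PO, *P. polionotus*; BW, *P. maniculatus*) and trial; lines are means and bars SD over 3 libraries. For Ptges, Coq4 and Ntmt1 the BW burrowing libraries differ from BW controls while the PO trials overlap; for Fam166b and Ferd3l the PO burrowing libraries lie above PO controls, and for Pcbp1 both species separate in opposite directions.

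Of the 8 genes with the smallest p among positive interactions, 6 had *P. polionotus* trials without overlap, 2 had *P. maniculatus* trials without overlap, and 0 had both. Over all genes trials did not overlap for 2.22% higher and 4.23% lower in *P. polionotus* and for 5.85% higher and 1.38% lower in *P. maniculatus*, but these 8 were picked by the interaction itself, so nothing is read from their count. Fam166b, whose product lies inside the microtubules of motile cilia, was at 12.4, 12.9 and 16.5 TPM in *P. polionotus* after burrowing and 8.16, 9.75 and 9.27 TPM in controls. In *P. maniculatus* it was at 6.38, 5.71 and 7.47 TPM after burrowing and 7.52, 6.53 and 9.28 TPM in controls. Only the *P. polionotus* trials separated, and the interaction was 0.78 (SE 0.20). Igdcc4, an adhesion protein of the immunoglobulin superfamily, was at 25.4, 24.7 and 25.4 TPM in *P. polionotus* after burrowing and 20.2, 19.6 and 20.5 TPM in controls, with *P. maniculatus* libraries at 22.8, 24.3 and 25.2 TPM after burrowing and 22.9, 23.8 and 24.7 TPM in controls. The replicates were tight and the *P. maniculatus* trials overlapped almost fully, so that an interaction of 0.30 (SE 0.08) had the fifth smallest p in its direction.

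Adora3, the adenosine A3 receptor, was at 6.52, 7.19 and 6.54 TPM in *P. polionotus* after burrowing and 4.90, 4.91 and 5.18 TPM in controls, against 2.27, 3.15 and 2.85 TPM in *P. maniculatus* after burrowing and 3.06, 3.16 and 4.55 TPM in controls. The *P. polionotus* trials separated and the *P. maniculatus* trials met at their edges (interaction 0.65, SE 0.17). Tsacc, a co-chaperone of a testis kinase, had an interaction of 0.51 (SE 0.13) at levels of 0.665 to 1.63 TPM. Ferd3l, a transcription factor of the developing floor plate, was at 6.65, 4.47 and 6.15 TPM in *P. polionotus* after burrowing and 0.939, 1.06 and 3.45 TPM in controls, and at 2.59, 2.10 and 4.74 TPM in *P. maniculatus* after burrowing and 6.91, 4.73 and 2.97 TPM in controls. The *P. polionotus* trials separated and the *P. maniculatus* trials overlapped widely, and the interaction of 1.86 (SE 0.49) was among the largest. Hoxa4 completes the 8 and is described with the other Hox genes. Among positive interactions of genes at 20 TPM or more the next was LOC102923756, at 0.68 (SE 0.21).

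Of the 8 genes with the smallest p among negative interactions, 5 had *P. polionotus* trials without overlap and 6 had *P. maniculatus* trials without overlap. Both held in opposite directions for 3, against 0.32% of all genes. Over all genes 2.22% were higher and 4.23% lower without overlap in *P. polionotus*, and 5.85% higher and 1.38% lower in *P. maniculatus*. These 8 too were picked by the interaction, so nothing is read from their count. Pcbp1, a protein that binds poly(C) stretches of RNA and carries iron, was at 66.0, 61.9 and 62.2 TPM in *P. polionotus* after burrowing and 83.4, 155 and 93.7 TPM in controls. In *P. maniculatus* it was at 60.9, 52.6 and 62.0 TPM after burrowing and 48.6, 32.2 and 24.3 TPM in controls. The 6 burrowing libraries lay together at 52.6 to 66.0 TPM, with *P. polionotus* controls above them and *P. maniculatus* controls below. The interaction was -1.52 (SE 0.35), and -1.01 without the 3 libraries apart on the principal component, which include the highest and the lowest control. Pcbp1 has close relatives, among which the authors' counting could split reads, so its level is uncertain.

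Pex16, which brings membrane proteins into peroxisomes, was at 32.6, 30.8 and 33.3 TPM in *P. polionotus* after burrowing and 36.2, 42.3 and 37.8 TPM in controls, against 40.8, 39.3 and 39.0 TPM in *P. maniculatus* after burrowing and 36.7, 34.5 and 35.9 TPM in controls. Trials separated in both species, lower after burrowing in *P. polionotus* by 0.26 and higher in *P. maniculatus* by 0.15 (interaction -0.41, SE 0.09). Pcdhb2 belongs to the clustered protocadherins, adhesion proteins that give neurons their identity and that resemble each other closely enough for reads to be shared. It was at 6.22, 4.73 and 4.66 TPM in *P. polionotus* after burrowing and 5.82, 6.37 and 6.40 TPM in controls, and at 6.04, 8.15 and 8.20 TPM in *P. maniculatus* after burrowing and 3.82, 4.01 and 5.59 TPM in controls. Only the *P. maniculatus* trials separated (interaction -0.86, SE 0.21).

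The remaining 4 of the 8 have no name beyond a locus number. LOC102926227 was at 33.8, 36.0 and 34.1 TPM in *P. polionotus* after burrowing and 31.0, 38.0 and 34.2 TPM in controls, and at 29.6, 24.0 and 29.1 TPM in *P. maniculatus* after burrowing and 15.7, 15.8 and 17.8 TPM in controls. The *P. maniculatus* controls alone stood apart, below the other 9 libraries, and the interaction was -0.69 (SE 0.13), the second smallest p of all genes. LOC102916021 (-0.88, SE 0.18), LOC102921798 (-0.47, SE 0.11) and LOC102911915 (-0.39, SE 0.09) were lower after burrowing in *P. polionotus* without overlap, and the last was also higher in *P. maniculatus* without overlap.

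Genes whose trials separated in opposite directions were counted next. As deposited, 42 genes (0.292%) were lower after burrowing in *P. polionotus* and higher in *P. maniculatus*, and 4 (0.0278%) did the reverse. In a single species 4.23% were lower and 2.22% higher in *P. polionotus*, and 1.38% lower and 5.85% higher in *P. maniculatus*. Unrelated responses with these shares would give about as many of each kind, so nothing is read from the 2 counts. Groups of fewer libraries overlap less readily, and the counts grew to 64 to 182 and 5 to 23 with single libraries left out, most for the 42 without *P. polionotus* control replicate 1 (182) and burrowing replicate 3 (120). They were 895 and 92 without the 3 libraries apart, and 139 and 39 without the 2 low controls. The 4 were LOC102916460 (0.72, SE 0.32), Spata4, a gene of spermatogenesis (0.54, SE 0.19), the neuropeptide Y receptor Npy5r, which promotes feeding (0.30, SE 0.10), and Nenf, a secreted factor that supports neurons (0.23, SE 0.11). Npy5r was at 9.34, 8.67 and 9.99 TPM in *P. polionotus* after burrowing and 8.30, 7.92 and 8.08 TPM in controls, and at 7.10, 6.79 and 7.14 TPM in *P. maniculatus* after burrowing and 8.49, 7.35 and 7.33 TPM in controls. Each pair of trials separated by less than the range of its wider group.

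The 42 were led in size by Pcbp1, followed by LOC102928606 (-1.34, SE 0.33), LOC102913425 (-0.62, SE 0.15), LOC102911395 (-0.54, SE 0.17) and Ifit2, an interferon-induced protein that limits translation of viral RNA. Ifit2 was at 9.49, 11.1 and 10.6 TPM in *P. polionotus* after burrowing and 11.8, 11.8 and 13.5 TPM in controls, and at 15.2, 16.3 and 17.1 TPM in *P. maniculatus* after burrowing and 14.0, 14.3 and 11.8 TPM in controls. Trials separated in both species and the interaction was -0.49 (SE 0.13). Foxp1, a transcription factor of striatal and cortical neurons, was also among the 42, at -0.36 (SE 0.12).

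The excess of negative interactions depended on how the libraries were scaled. TPM share a fixed total, and the 2 most abundant features, MTRNR2L6 and LOC102927657, together took 4.35% to 12.1% of it. They took 7.20% to 8.43% in *P. polionotus* after burrowing, 4.35% to 7.92% in *P. polionotus* controls, 8.60% to 11.1% in *P. maniculatus* after burrowing and 10.4% to 12.1% in *P. maniculatus* controls. The median interaction of all genes was -0.05 as deposited, -0.01 after rescaling without the 2 features, 0.00 with quantile normalization and 0.01 with median scaling. At an unadjusted p under 0.05, 307 of 415 genes (74.0%) were negative as deposited, 167 of 327 (51.1%) after rescaling, 164 of 389 (42.2%) with quantile normalization and 125 of 405 (30.9%) with median scaling. The 42 and 4 opposite genes became 22 and 11, 20 and 17, and 13 and 25 in the same order; 14 of the 42 and 1 of the 4 were shared with quantile normalization, and 9 and 1 with median scaling. No direction is therefore given for the interaction of genes as a whole. The 9 opposite genes named by size kept their signs under quantile and median scaling.

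**Figure D3:**
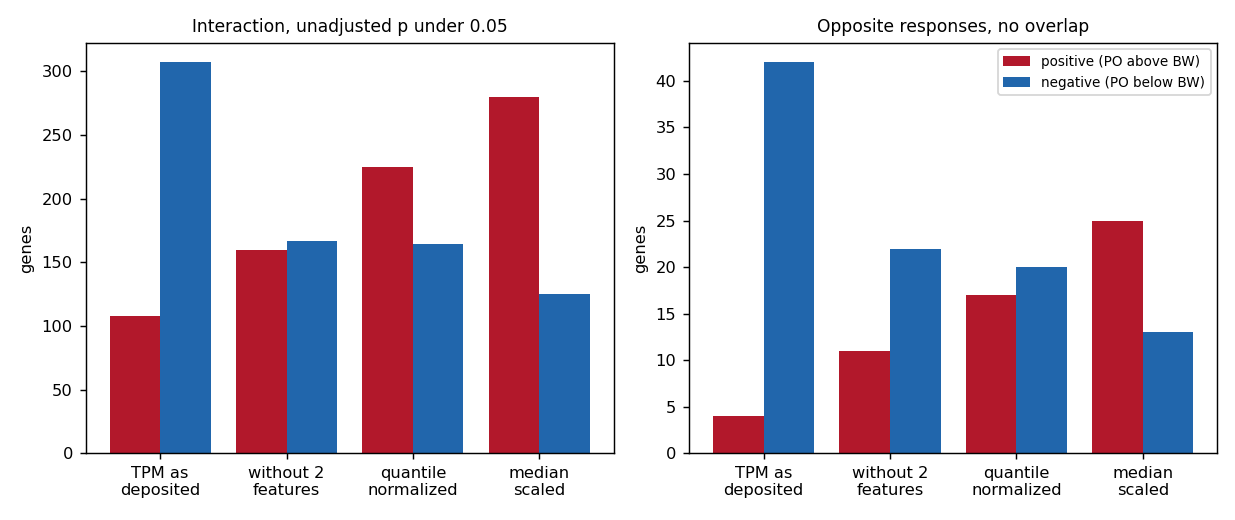
Number of genes (y axis) with a positive or a negative interaction, at an unadjusted p under 0.05 (left) and with opposite responses without overlap (right), under 4 scalings of the same libraries (x axis); PO is *P. polionotus* and BW *P. maniculatus*. Negative genes outnumber positive ones 307 to 108 as deposited, and the order turns round to 125 and 280 with median scaling.

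Gene lists are described by the number of tested members, their median interaction and how many were positive, beside a median of -0.05 and 35.1% positive (5040 genes) over all genes. None of 26 lists held a member that passed. Because the median of all genes moves by under 0.1 with scaling, a list is read against it and not against 0.

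Hox genes, which set the identity of hindbrain and spinal cord and in adult brain mark tissue from its lower end, stood farthest from all genes. Of 23 listed, 14 were tested, all 14 had a positive interaction, 6 had an unadjusted p under 0.05 against 0.752% of all genes, and the median was 0.97. Their median response was 0.81 in *P. polionotus* and -0.12 in *P. maniculatus*. Hoxa5 was at 4.15, 4.83 and 5.50 TPM in *P. polionotus* after burrowing and 2.88, 0 and 0.482 TPM in controls, and at 1.69, 2.32 and 3.88 TPM in *P. maniculatus* after burrowing and 2.53, 3.36 and 2.63 TPM in controls. *P. polionotus* control replicates 2 and 3 were the low ones (interaction 1.82, SE 0.56). Hoxa4 was at 5.12, 3.92 and 8.79 TPM in *P. polionotus* after burrowing and 3.14, 1.53 and 0.912 TPM in controls, and at 1.78, 2.44 and 5.06 TPM in *P. maniculatus* after burrowing and 3.69, 3.89 and 6.06 TPM in controls. The same 2 controls were lowest (interaction 1.78, SE 0.51), and Hoxa2 followed at 1.08 (SE 0.35).

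The summed level of the 23 Hox genes was 54.0, 55.8 and 62.9 TPM in *P. polionotus* after burrowing, 43.6, 7.82 and 23.2 TPM in *P. polionotus* controls, 49.3, 39.9 and 57.8 TPM in *P. maniculatus* after burrowing and 52.7, 48.1 and 63.0 TPM in *P. maniculatus* controls. Only *P. polionotus* control replicates 2 and 3 lay outside 39.9 to 63.0 TPM, and 2 of the 23 genes were at 0 in every library. Without those 2 controls the list's median was 0.31 with 2 members at an unadjusted p under 0.05, a fit in which 1 library stands for the group. Without the 3 libraries apart on the principal component it was 0.45 with 0 members, and without *P. polionotus* control replicate 1 it was 1.19 with 13 members. With the mean of the Hox list as a covariate, 36 of the 67 named genes moved by over 1.5 times or changed sign. That mean was itself higher in *P. polionotus* after burrowing (2.11 to 2.27) than in its controls (0.51 to 1.88). Such a fit can therefore take out part of an interaction, and no conclusion is drawn from a smaller value in it. Ferd3l stood at 1.79, Fam166b at 0.76 and Ptges at -1.79 in that fit, while Pcbp1 stood at -0.89, Hsp90aa1 at -0.082, Cux2 at -0.16, Foxp1 at -0.12, Bcan at -0.0042 and LOC102923756 at 0.24, against -1.52, -0.73, -0.47, -0.36, -0.23 and 0.68 without the covariate.

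**Figure D4:**
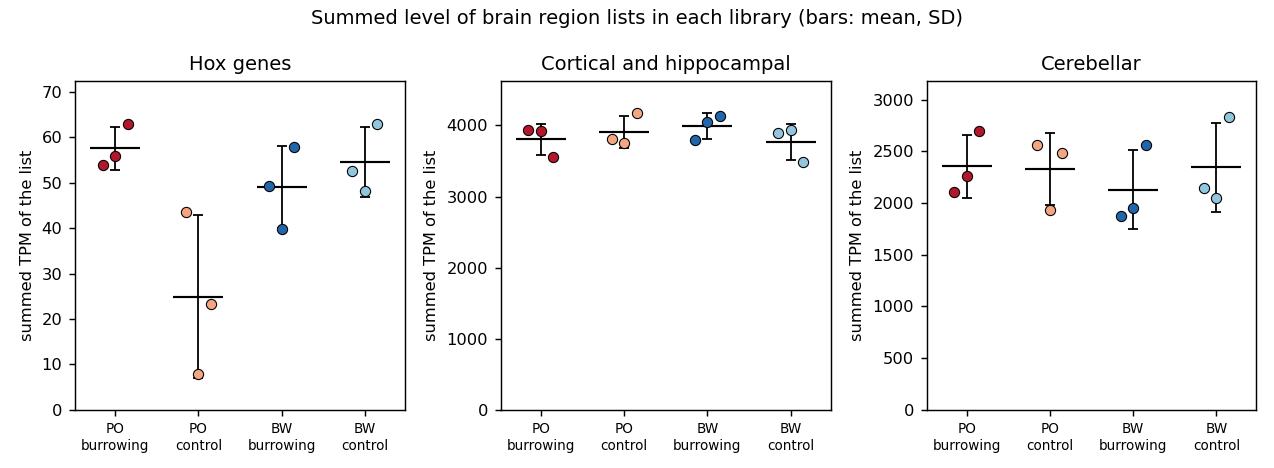
Summed TPM (y axis, linear, from 0) of 3 gene lists that mark brain regions in each of the 12 libraries, by species (PO, *P. polionotus*; BW, *P. maniculatus*) and trial; lines are means and bars SD over 3 libraries. In the Hox panel PO controls spread from 7.82 to 43.6 TPM while all other libraries lie between 39.9 and 63.0 TPM; in the cortical and cerebellar panels all 4 groups overlap.

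Genes of excitatory cortical and hippocampal neurons lay on the other side. Of 23 tested, 2 were positive, with a median of -0.18; the median response was -0.07 in *P. polionotus* and 0.13 in *P. maniculatus*. Cux2, a transcription factor of upper cortical layers, was at 9.69, 9.95 and 7.85 TPM in *P. polionotus* after burrowing and 10.2, 13.1 and 11.7 TPM in controls, and at 7.60, 9.70 and 8.60 TPM in *P. maniculatus* after burrowing and 8.41, 7.57 and 7.02 TPM in controls. *P. polionotus* trials separated narrowly and *P. maniculatus* trials overlapped (interaction -0.47, SE 0.17). Itpka, a kinase of dendritic spines (-0.32, SE 0.12), and Lmo4, a cortical transcription cofactor (-0.25, SE 0.12), had the next smallest p. The summed level was 3557 to 3936 TPM in *P. polionotus* after burrowing, 3751 to 4168 TPM in *P. polionotus* controls, 3790 to 4136 TPM in *P. maniculatus* after burrowing and 3483 to 3942 TPM in *P. maniculatus* controls, so that all groups overlapped. Under median scaling 4 of the 23 were positive (median -0.13), and without the 3 libraries apart 5 were, at a median of -0.07 beside -0.09 for all genes.

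Cerebellar granule and Purkinje cell genes had 19 of 22 positive and a median of 0.11, with 0 members at an unadjusted p under 0.05. Ppp1r17, a phosphatase inhibitor of Purkinje cells (0.42, SE 0.26), Zic4, a transcription factor of granule cells (0.20, SE 0.20), and Barhl1, another one (-0.14, SE 0.15), had the smallest p. The sign of this list rested on single libraries: without *P. polionotus* control replicate 2 the median was -0.01 with 10 of 22 positive, and without the 3 libraries apart it was -0.14 with 3 of 22 positive. Oligodendrocyte precursor genes had 3 of 17 positive and a median of -0.12, led by the cell cycle gene Ccnd1 (-0.51, SE 0.22), the proteoglycan Bcan (-0.23, SE 0.12) and the lineage factor Sox10 (-0.27, SE 0.17). In each of the lists for myelin, astrocytes, microglia, endothelium, interneurons and thalamus, the median lay between -0.17 and 0.04. Lists for choroid plexus and ependyma, hypoxia, dopamine neurons, fasting, the circadian clock and muscle had medians of -0.09 to 0.20, highest for choroid plexus and ependyma. In the same order 14 of 19, 11 of 17, 11 of 13, 12 of 20, 7 of 19 and 6 of 11 members were positive, beside 35.1% of all genes. Each of these lists had 0 members at an unadjusted p under 0.05. The blood and pituitary lists held 3 tested genes each.

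**Figure D5:**
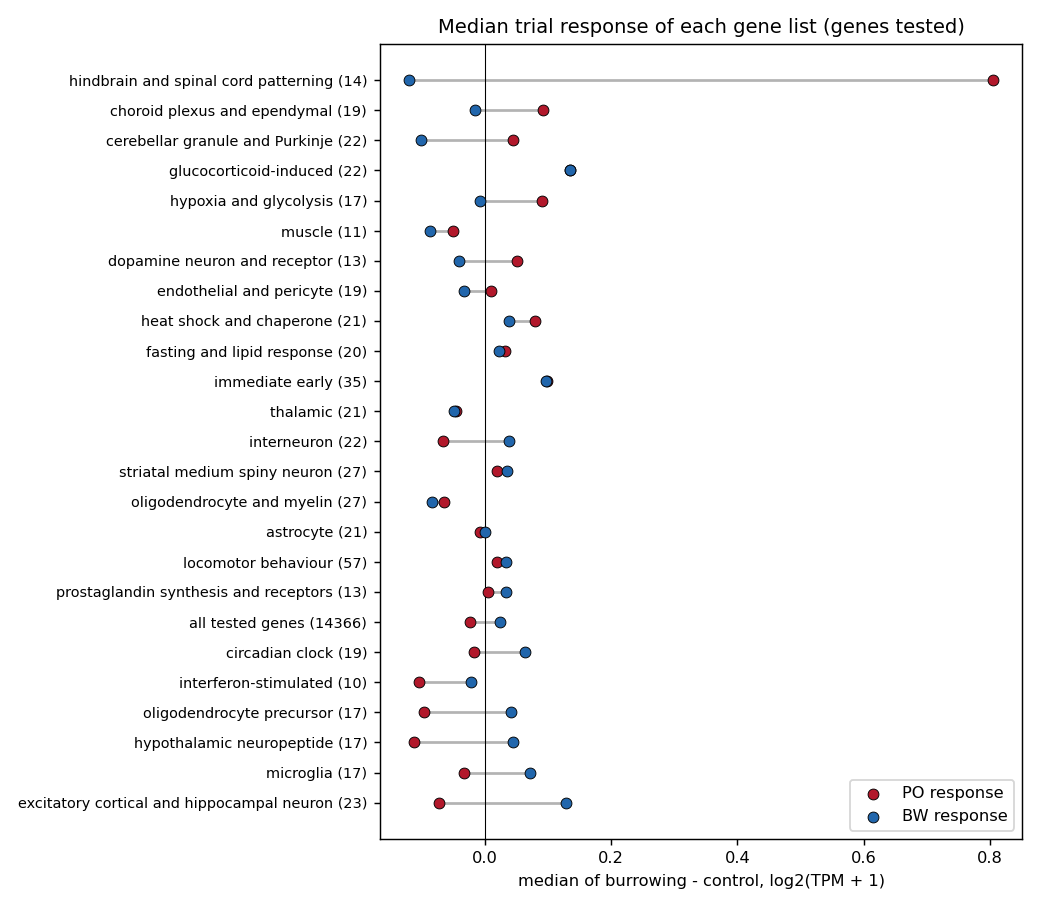
Median response (x axis, burrowing minus control, log2(TPM + 1)) of the tested members of each gene list in *P. polionotus* (PO, red) and *P. maniculatus* (BW, blue), for lists with at least 10 tested members (number in brackets), ordered by the median interaction. The Hox list stands alone at 0.81 and -0.12, and glucocorticoid-induced and immediate early genes have medians above 0 in both species, 0.13 in each for the first list and 0.10 in each for the second; these are values as deposited, and other scalings set the PO medians above the BW ones.

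Genes of neuronal activity and stress had like median responses in both species as deposited, though not under other scalings. Immediate early genes had a median interaction of 0.00 with 18 of 35 positive, and a median response of 0.10 in either species. With median scaling the responses were 0.13 in *P. polionotus* and 0.065 in *P. maniculatus*, and with quantile normalization 0.13 and 0.067 in the same order. Fos, whose protein is the standard mark of recently active neurons, was at 213, 105 and 80.8 TPM in *P. polionotus* after burrowing and 98.3, 137 and 84.3 TPM in controls, and at 169, 92.5 and 117 TPM in *P. maniculatus* after burrowing and 147, 109 and 112 TPM in controls. Trials overlapped in both species, and 1 *P. polionotus* brain, burrowing replicate 1, was highest (interaction 0.21, SE 0.47; -0.18 without that brain). The list's median turned on that library: without it 4 of 35 were positive at a median of -0.21, and the median response in *P. polionotus* was -0.13. Without burrowing replicate 3 of the same group 34 were positive, at a median of 0.19, and without the 3 libraries apart 32 were, at a median of 0.37. Csrnp1 (0.30, SE 0.17), the phosphatase Dusp5 (0.27, SE 0.20) and Klf4 (0.41, SE 0.38), all switched on early after stimulation, had the smallest p of the list.

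Glucocorticoid-induced genes had 16 of 22 positive, a median interaction of 0.10 and 0 members at an unadjusted p under 0.05; the median response was 0.13 in both species. With median scaling the responses were 0.17 in *P. polionotus* and 0.10 in *P. maniculatus* and 18 of 22 interactions were positive, while without the 3 libraries apart the median interaction was 0.032. Pdk4, which holds back glucose oxidation, was at 66.1, 76.4 and 82.3 TPM in *P. polionotus* after burrowing and 42.6, 31.7 and 37.4 TPM in controls, and at 33.8, 43.8 and 23.4 TPM in *P. maniculatus* after burrowing and 18.1, 31.0 and 33.9 TPM in controls. *P. polionotus* trials separated and *P. maniculatus* trials overlapped, but the difference between the responses, 0.72 (SE 0.35), was within an interval of -0.06 to 1.49, and it was 0.37 without the 3 libraries apart. Angptl4, a secreted inhibitor of lipoprotein lipase, was at 2.76, 2.41 and 2.52 TPM in *P. polionotus* after burrowing and 0.625, 0.498 and 0.778 TPM in controls, and at 0.566, 0.904 and 2.10 TPM in *P. maniculatus* after burrowing and 0.471, 0.372 and 0.312 TPM in controls. Trials separated in both species in the same direction (1.13 in *P. polionotus*, 0.60 in *P. maniculatus*), and the interaction of 0.53 (SE 0.28) had an interval of -0.09 to 1.14.

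Nuak2, a kinase of the AMPK family, separated the trials in both species too, by 0.48 in *P. polionotus* and 0.34 in *P. maniculatus*. It was at 2.92, 2.76 and 2.95 TPM in *P. polionotus* after burrowing and 1.66, 1.64 and 2.04 TPM in controls, and at 2.90, 3.43 and 3.03 TPM in *P. maniculatus* after burrowing and 2.33, 2.19 and 2.23 TPM in controls. Its interaction was 0.14 (SE 0.11, interval -0.10 to 0.38). Nfkbia, the inhibitor of NF-kappaB, stood at 0.48 (SE 0.35), the kinase Sgk1 at 0.30 (SE 0.40) and the glucocorticoid receptor co-chaperone Fkbp5 at 0.17 (SE 0.26), with intervals that span 0 for each.

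Ptges stood alone among its pathway. Of 13 tested genes of prostaglandin synthesis and reception, 6 were positive, the median was -0.03, and Ptges was the 1 member at an unadjusted p under 0.05. The receptor Ptger3 (-0.13, SE 0.10) and the cytosolic synthase and Hsp90 co-chaperone Ptges3 (0.10, SE 0.10) came next. Interferon-stimulated genes had 2 of 10 positive and a median of -0.10, with Ifit2 at the front, then Ifit3 (-0.66, SE 0.34) and the ubiquitin-like Isg15 (-0.61, SE 0.34). Of the 10, 4 were lower after burrowing in *P. polionotus* without overlap, against 4.23% of all genes, and 0 were higher, against 2.22%. Such counts were not particular to this list. Without overlap in *P. polionotus*, 7 of 22 glucocorticoid-induced genes were higher and 0 lower. For heat shock genes 6 of 21 were higher and 1 lower, and for myelin genes 1 of 27 was higher and 7 lower. Among 21 heat shock and chaperone genes 14 were positive (median 0.01). Hsp90aa1, the inducible cytosolic Hsp90, was at 53.4, 59.2 and 58.8 TPM in *P. polionotus* after burrowing and 62.8, 104 and 68.8 TPM in controls, and at 63.5, 112 and 65.6 TPM in *P. maniculatus* after burrowing and 65.7, 59.5 and 62.6 TPM in controls. *P. polionotus* control replicate 2 and *P. maniculatus* burrowing replicate 2 stood far above the rest; the interaction was -0.73 (SE 0.31), -0.51 without the first library and -0.46 without the second. The co-chaperone Dnajb1 (0.30, SE 0.16) and the small heat shock protein Cryab (0.35, SE 0.20) were positive.

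Locomotor behaviour genes, the list nearest to digging itself, had 22 of 57 positive, a median of -0.02 and 0 members at an unadjusted p under 0.05. Under median scaling 39 of 57 were positive at a median of 0.04, so no direction is given. The list holds the glutamate receptor Grm5, with an interaction of -0.20 (SE 0.11), and the calcium channel Cacna1e, at -0.19 (SE 0.10). Of 27 striatal medium spiny neuron genes 11 were positive (median -0.01), led by Foxp1, the retinoic acid receptor Rarb (-0.22, SE 0.13) and the transcription factor Bcl11b (-0.32, SE 0.20). The dopamine receptor Drd1 had an interaction of -0.04 (SE 0.19, interval -0.45 to 0.37) and the adenosine receptor Adora2a, its counterpart on the other striatal output pathway, 0.06 (SE 0.25, interval -0.49 to 0.61).

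Hypothalamic neuropeptide genes had 4 of 17 positive and a median of -0.16. Galanin (Gal), a peptide of feeding and arousal circuits, was at 4.34, 5.55 and 4.91 TPM in *P. polionotus* after burrowing and 4.41, 4.38 and 4.37 TPM in controls, and at 3.04, 3.16 and 3.00 TPM in *P. maniculatus* after burrowing and 3.27, 4.44 and 3.91 TPM in controls. Trials separated in *P. maniculatus*, lower after burrowing, and overlapped in *P. polionotus* (interaction 0.39, SE 0.14). The reproductive releasing hormone Gnrh1 stood at -0.71 (SE 0.40) and the feeding peptide Cartpt at -0.57 (SE 0.35). Vasopressin (Avp), tied to water balance and social behaviour, had -0.11 (SE 0.31, interval -0.80 to 0.57), and oxytocin (Oxt) had 0.21 (SE 0.61, interval -1.14 to 1.57), the widest interval of the genes named so far.

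Many of these interactions moved when the libraries that stood apart were left out. Other sets of 2 or 3 libraries were not left out, so the moves cannot be put down to these libraries in particular. Drd1, Adora2a, Avp and Oxt also had interactions smaller than their standard errors. Without the 2 *P. polionotus* controls low in Hox genes Hoxa5 was at 0.70 and Hoxa4 at 1.18, and without the 3 libraries apart on the principal component Hoxa2 was at 0.62. Among cortical genes Cux2 was at -0.24 without the 3 libraries and -0.30 without the 2 controls, Itpka at -0.16 and -0.15 in the same order, and Lmo4 at -0.089 without the 3. The cortical and Hox genes thus kept their signs at smaller sizes.

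Cerebellar genes did not all do so. Ppp1r17 was at 0.098 without the 3 libraries and 0.0081 without the 2 controls, Zic4 at -0.13 and 0.12, and Barhl1 at -0.22 without the 3. Of the oligodendrocyte precursor genes Ccnd1 was at -0.28 and -0.31, Sox10 at -0.091 and -0.10, and Bcan at -0.11 without the 2 controls. In the striatal list Bcl11b was at -0.011 and -0.16, Drd1 at 0.081 and 0.033 and Adora2a at 0.34 and 0.19, while Rarb was at -0.081 and Foxp1 at -0.21 without the 2 controls. Signs turned for Zic4 without the 3 libraries and for Drd1 in both fits.

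Among stress and activity genes without the 3 libraries, Nfkbia was at 0.074, Fkbp5 at -0.15, Dusp5 at 0.10 and Fos at 0.76, and Sgk1 was at 0.017 there and 0.19 without the 2 controls. Without the 2 controls Hsp90aa1 was at -0.45 and Cryab at 0.56. Isg15 was at -1.11 without the 3 libraries and -1.03 without the 2 controls, and Ptger3 at -0.21 without the 3. Ptges3 was at -0.016 and -0.022, Cartpt at -0.30 and -0.21, Avp at 0.20 and 0.37 and Oxt at 1.01 and 0.55. LOC102923756 was at 0.44 and 0.37, LOC102916460 at 0.37 and 0.38 and Nenf at 0.10 and 0.14, and LOC102913425 was at -0.38 without the 2 controls. Besides Fkbp5, Ptges3 and Avp, whose signs turned, these genes kept their signs.

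The F1 hybrids, the rest of the series, gave a further trial response to set beside the parental ones. Their allele-assigned counts summed to 11415175 to 53906964 per animal, and edgeR called 0 of 11928 genes (0%) between trials, with 90 at an unadjusted p under 0.05 (0.755%), while DESeq2 called 2. Of the 16 leading interaction genes 7 were in the hybrid count table, and none of the 7 had an unadjusted p under 0.05 there; Ptges, Coq4 and Pcbp1 were not analysed in hybrids. Ntmt1 had a log2 fold change of -0.29, Pex16 of -0.19, Fam166b of -0.23, Igdcc4 of -0.16 and Pcdhb2 of 0.05 after burrowing. Angptl4 was at 2.21, 4.90 and 3.47 CPM in hybrids after burrowing and 1.14, 1.27 and 1.17 CPM in hybrid controls. Trials separated, as in both parents, by a log2 fold change of 1.55 (edgeR adjusted p = 0.965), while Nuak2 was at -0.28, Pdk4 at 0.48 and Fos at 0.87.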

How the data were processed

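Whole brain RNA of 12 parental and 6 hybrid libraries was measured. The authors deposited the parental libraries as a table of TPM with 20732 rows and the hybrids as allele-specific counts of 11928 genes, both made from reads aligned with STAR 2.4.2a, per the submitters' processing notes. Quantifier, genome build and annotation: not given in the sources used here. TPM keep no depth, so depth of the parental libraries is unknown and their precision comes from the spread between libraries alone. Depth of the hybrids was 11415175 to 53906964 allele-assigned counts.

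Groups came from the sample titles. A TPM row that names no gene (0.789% to 2.48% of TPM) was left out, and 27 rows whose names had become dates were tested (22 of them) but not named. Libraries of a group correlated at 0.988 to 0.996 (Spearman), and no pair was equal at more than 0.104% of genes.

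limma 3.58.1 (mean trend, R 4.3.3) was fitted to log2(TPM + 1) with 1 mean for each of the 4 groups and a spread shared by 12 libraries, and the interaction and both species' responses were contrasts of that fit. Tests were two-sided, with Benjamini-Hochberg adjustment over 14366 genes. Counts of both alleles were summed and tested between trials with edgeR 4.0.16 (TMM, quasi-likelihood test), with DESeq2 1.42.0 as an alternative. Both tests were first tried on simulated data with 200 changed genes. Trials of a species did not overlap where the lowest library of the higher trial lay above the highest of the lower.

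Members, gene lists and rules were chosen with earlier results of these data known. Genes were named by rule: 8 per direction by interaction p, 4 per direction at 20 TPM or more, 3 per list described, up to 5 per class of opposite responses and a panel of 12, of which Th was not analysed here; 1 gene that the rule names is not reported here. Reference assembly HU_Pman_BW_mat_3.1 matched 12429 tested names (86.5%) and served to find neighbouring genes only. Alternatives were other pseudocounts (0.1 and 5), filters, scalings, limma options, replicate blocks, a Hox covariate and left-out libraries; rescaling without the 2 most abundant features was chosen after seeing the data.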

Additional observations from a re-analysis of the deposited data

How the results depend on the processing

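The interaction count was 1 with a pseudocount of 5 (Ptges), 1 with no expression filter, 1 with array weights (Ptges) and 0 to 2 when single libraries were left out, with 2 without *P. maniculatus* control replicate 1 and 1 without control replicate 3 (Ptges, -1.48, limma adjusted p = 0.0331). The *P. polionotus* response had 3 calls with no filter and 0 to 2 with single libraries left out. Ptges, the single call of the *P. maniculatus* response, was lost with a pseudocount of 0.1 (0 calls; response 2.31, limma adjusted p = 0.0859) or a fit of that species alone (0 calls; response 1.91, limma adjusted p = 0.400). A minimum of 5 TPM, which leaves Ptges untested at its mean of 3.47 TPM, gave 0 calls. Array weights gave 4 calls, rescaling without the 2 most abundant features 2, and left-out libraries 1 to 6, with 4 without burrowing replicate 2, 6 without control replicate 1 and 3 without control replicate 2. DESeq2 called 2 hybrid genes against 0 by edgeR. The cause was not tested.

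Same-numbered libraries of the 2 trials correlated at 0.05, -0.07 and -0.23 in *P. polionotus* and 0.25, 0.13 and 0.10 in *P. maniculatus*. The hybrid values were -0.45, -0.57 and 0.19. Libraries with different numbers correlated at -0.20 to 0.30 in *P. polionotus*, -0.16 to 0.03 in *P. maniculatus* and -0.18 to 0.64 in hybrids. Every same-numbered pair of *P. maniculatus* thus stood above its pairs with different numbers, which was not so in *P. polionotus* or hybrids. Whether the numbers mark paired animals was not tested. With the replicate number as a block, within species or across all 4 groups, the interaction count stayed at 0, the *P. polionotus* count at 0, the *P. maniculatus* count at 1 and the hybrid count at 0.

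Over 67 named genes and 1793 gene-settings, 1755 kept direction and side of the threshold and 35 reversed. All but Ptges started at a limma adjusted p of 0.992 or more, so that keeping the side was nearly fixed in advance. In size, 28 of the 67 moved by over 1.5 times or changed sign without the 3 libraries apart, and 36 did with the Hox covariate. With the Hox list as a covariate LOC102916460 went to -0.060, Ptges3 to -0.12, Ppp1r17 to -0.17, Zic4 to -0.13, Cartpt to 0.081, Avp to 0.61 and Drd1 to 0.018. With array weights Dusp5 went to -0.059, Ptges3 to -0.018, Zic4 to -0.022 and Avp to 0.084. Without the 3 libraries apart Ptges3 went to -0.016, Zic4 to -0.13, Fkbp5 to -0.15, Avp to 0.20 and Drd1 to 0.081. Without the 2 *P. polionotus* controls low in Hox genes Ptges3 went to -0.022, Avp to 0.37 and Drd1 to 0.033. Drd1 was 0.017 with quantile normalization, 0.026 with median scaling and 0.0049 after rescaling. With single libraries left out, Fos ranged from -0.18 to 0.51, Sgk1 from -0.078 to 0.60, Fkbp5 from -0.012 to 0.34, Avp from -0.36 to 0.13, Oxt from -0.20 to 0.65, Drd1 from -0.19 to 0.082 and Adora2a from -0.13 to 0.24. All these genes had intervals that include 0, except LOC102916460.

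Animals, 3 per group, limit these results: a gene of median spread needed a difference of 1.14 to pass. Depth of the parental libraries is unknown, so counting error cannot be set apart from spread between animals.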

Other observations

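Without overlap between trials, 21 genes were higher and 7 lower after burrowing in both species (0.146% and 0.0487% of all genes). In a single species 2.22% were higher and 4.23% lower in *P. polionotus*, and 5.85% higher and 1.38% lower in *P. maniculatus*. Unrelated responses with these shares would give counts of about this size, so no shared response is read from them. The genes below were chosen from the 21 and 7 after their values were seen, and none passed in either species. Besides Angptl4 and Nuak2, the higher ones included Bag3, a co-chaperone of Hsp70 in stress and autophagy, at 16.3, 14.5 and 14.6 TPM in *P. polionotus* after burrowing and 12.6, 13.5 and 13.5 TPM in controls, with a response of 0.18 there and 0.17 in *P. maniculatus*. The thrombin receptor thrombomodulin (Thbd) responded by 0.22 in *P. polionotus* and 0.16 in *P. maniculatus*, and the rhythmically expressed gene Noct by 0.27 and 0.13 in the same order. Thbd was at 86.8, 84.3 and 86.1 TPM in *P. polionotus* after burrowing and 78.3, 62.9 and 80.9 TPM in controls. In *P. maniculatus* it was at 73.3, 76.3 and 75.0 TPM after burrowing and 65.6, 67.6 and 67.0 TPM in controls, so that the trials separated in both species. Among the lower ones, the membrane protein gene Tmem125 was at 51.7, 49.4 and 54.0 TPM in *P. polionotus* after burrowing and 60.5, 83.2 and 64.5 TPM in controls, with responses of -0.41 in *P. polionotus* and -0.24 in *P. maniculatus*. The interactions of these 4 genes were 0.01, 0.05, 0.14 and -0.17, with standard errors of 0.10 to 0.16. With quantile normalization 19 genes were higher and 13 lower in both species, and with median scaling 17 and 14.

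The largest interaction in size was not among the smallest p-values. LOC102923933 was at 2050, 2013 and 1145 TPM in *P. polionotus* after burrowing and 952, 0 and 265 TPM in controls, against 3804, 3643 and 3772 TPM in *P. maniculatus* after burrowing and 3694, 3520 and 4467 TPM in controls. The interaction was 4.78 (SE 2.62) with an interval of -1.01 to 10.6, since 1 *P. polionotus* control is listed at 0.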
